A study of Mus musculus with 9 samples.

Results

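The genes described here encode the proteasome. They were taken as every gene of the expression table whose symbol is Psm, then a letter from a to g, then a digit, which gave 50 of 14862 genes. Of these, 48 encode subunits, regulators or assembly factors of the proteasome, and the other 2 share only the name. Psmc3ip is a factor of meiotic recombination, and Psme2b is a copy resembling Psme2. The genes were sorted by role and not by their values. RNA was sequenced from splenic dendritic cells of C57Bl/6 mice, 8 to 12 weeks old, that had been sorted as mcDC, cDC1 or cDC2, with 3 libraries of each. The labels name no treatment or genotype for any group, give no sorting markers, and do not spell out mcDC, which in the field stands for merocytic dendritic cell. cDC1 and cDC2 are the conventional dendritic cells of type 1, known for presenting captured antigen to CD8 T cells, and of type 2, known for presenting to CD4 T cells. Nothing in the labels ties libraries to separate animals, and the spread on which p-values rest may therefore be technical.

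The proteasome cuts ubiquitin-tagged proteins into peptides. Its barrel, the 20S core, has outer alpha rings and inner beta rings, and the catalytic sites sit in the beta subunits beta1 (Psmb6), beta2 (Psmb7) and beta5 (Psmb5). Interferon-gamma induces the immunosubunits Psmb9, Psmb10 and Psmb8, which take those places in newly built cores and favour peptides that fit MHC class I, and dendritic cells are known to hold such immunoproteasomes without stimulation. The 19S cap unfolds tagged proteins, the PA28 ring of Psme1 and Psme2 opens the core as another interferon-induced activator, and Psmb9 and Psmb8 lie next to the peptide transporter genes Tap1 and Tap2 in the MHC region.

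The promoters of the 4 genes on which the results turn are shown first, because the 2 that passed the test between subsets, Psmb9 and Psme1, can be read beside the other immunosubunits, Psmb8 and Psmb10. Each is a RefSeq window of 300 bases on GRCm38.p6, from 250 before to 50 after the annotated start, written 5′ to 3′ on the gene's strand. The windows are chr17:34187281-34187580 on the minus strand for Psmb9, chr14:55578244-55578543 on the plus strand for Psme1, chr17:34197945-34198244 on the plus strand for Psmb8 and chr8:105938343-105938642 on the minus strand for Psmb10. Capitals mark a match to GAAANNGAAA, the core of the interferon-stimulated response element, in Psme1, read there from the opposite strand, and a match to TTCNNNGAA, the gamma-activated sequence bound by STAT factors, in Psmb8.
Psmb9: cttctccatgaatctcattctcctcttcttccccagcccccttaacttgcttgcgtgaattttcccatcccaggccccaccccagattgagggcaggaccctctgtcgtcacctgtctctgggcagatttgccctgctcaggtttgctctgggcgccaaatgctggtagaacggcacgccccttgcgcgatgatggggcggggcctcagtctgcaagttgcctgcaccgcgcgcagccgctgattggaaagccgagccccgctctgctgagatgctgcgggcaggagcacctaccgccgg
Psme1: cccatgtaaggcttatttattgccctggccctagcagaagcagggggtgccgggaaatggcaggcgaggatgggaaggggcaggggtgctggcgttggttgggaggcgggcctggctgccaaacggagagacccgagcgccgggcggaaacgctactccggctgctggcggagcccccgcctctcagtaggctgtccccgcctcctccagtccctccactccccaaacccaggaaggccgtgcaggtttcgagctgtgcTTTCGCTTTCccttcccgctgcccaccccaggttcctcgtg
Psmb8: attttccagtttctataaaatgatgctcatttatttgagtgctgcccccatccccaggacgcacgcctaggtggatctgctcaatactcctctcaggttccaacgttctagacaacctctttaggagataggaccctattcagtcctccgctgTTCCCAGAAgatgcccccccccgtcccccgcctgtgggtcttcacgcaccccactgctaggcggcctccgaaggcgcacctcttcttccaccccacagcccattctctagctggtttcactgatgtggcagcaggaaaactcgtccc
Psmb10: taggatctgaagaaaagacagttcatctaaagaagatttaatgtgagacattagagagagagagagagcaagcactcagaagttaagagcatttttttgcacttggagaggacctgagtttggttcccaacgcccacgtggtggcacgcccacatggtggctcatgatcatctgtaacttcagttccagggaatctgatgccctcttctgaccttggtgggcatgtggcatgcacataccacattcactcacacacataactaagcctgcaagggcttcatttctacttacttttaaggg

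Searched on both strands, the response element core was in the windows of 5 of the 42 Psm genes that had a window (11.9%), against 3.99% of the 27025 genes of the promoter table. The 5 were Psmb3, Psmd4, Psmd9, Psme1 and Psmg4, and in Psme1 the match began 9 bases after the start. The gamma-activated sequence was in 3 of the 42, which were Psmb8, Psmd2 and Psmg1, against 9.55% of all genes, and the match in Psmb8 began 97 bases before the start. The windows of Psmb9 and Psmb10 held neither run of letters. TGACNNNGC, the antioxidant response element core read by the factors Nfe2l1 and Nfe2l2, was in 6 of the 42 against 14% of all genes. Among the 6 were the constitutive subunits Psmb5, 47 bases before the start, and Psmb6, 9 bases before it. These matches describe the letters of the windows and no binding was measured. In the reference gene order Psmb9, Tap1, Psmb8 and Tap2 were consecutive on chromosome 17. On chromosome 14, Psme1 overlapped Emc9, which was followed by Psme2.

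The deposited values were read as RPKM, which scale the reads of a gene by its length and by the library's total and can be compared between genes. Reads recovered from these values were 5.14 to 8.22 M in mcDC, 9.68 to 11.01 M in cDC1 and 9.19 to 12.43 M in cDC2, and mcDC replicate 3 had both the fewest reads and the most genes at 0, 12.35% against 2.71% to 6.47% in the other 8 libraries. Marker genes matched the labels for cDC1 and cDC2. Of 6 listed markers for each, 5 of cDC1 were higher and 5 of cDC2 lower in cDC1 than in cDC2, by the limma test described below. Xcr1, a chemokine receptor of cDC1, stood at 10.3 to 19.4 RPKM in mcDC, 131 to 174 RPKM in cDC1 and 1.95 to 2.81 RPKM in cDC2. Sirpa, a receptor of cDC2, stood at 145 to 213 RPKM in mcDC, 11.5 to 43.0 RPKM in cDC1 and 267 to 278 RPKM in cDC2. mcDC thus lay between the others for both markers, and their means did so for the other listed cDC1 and cDC2 markers except Batf3 and Dtx1. Batf3, listed for cDC1, averaged 184 RPKM in mcDC, 171 RPKM in cDC1 and 118 RPKM in cDC2. Dtx1, listed for cDC2, averaged 87.6 RPKM in mcDC, 5.72 RPKM in cDC1 and 65.4 RPKM in cDC2. Zbtb46, which marks the conventional dendritic cell lineage, was found in every library, at 25.5 to 44.4 RPKM.

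The immunosubunits Psmb8 and Psmb9 and the PA28 subunits Psme1 and Psme2 had the most abundant RNA of the 50 genes. Averaged over the 9 libraries, the highest levels were those of Psme1 at 384 RPKM, Psmb8 at 352 RPKM, Psmb9 at 292 RPKM and Psme2 at 207 RPKM. The next was Psmb1, a structural beta subunit, at 149 RPKM. Psmb10, the immunosubunit of the beta2 site, averaged 88.5 RPKM and lay within the range of the constitutive catalytic subunits, which was 60.1 RPKM for Psmb5 to 98.1 RPKM for Psmb7. The 3 immunosubunits together made up 74.2% ± 1.77 of the summed RPKM of the 6 catalytic subunits in mcDC, 77.0% ± 1.35 in cDC1 and 73.9% ± 0.192 in cDC2 (SD, n = 3 each).

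**Figure D1:**
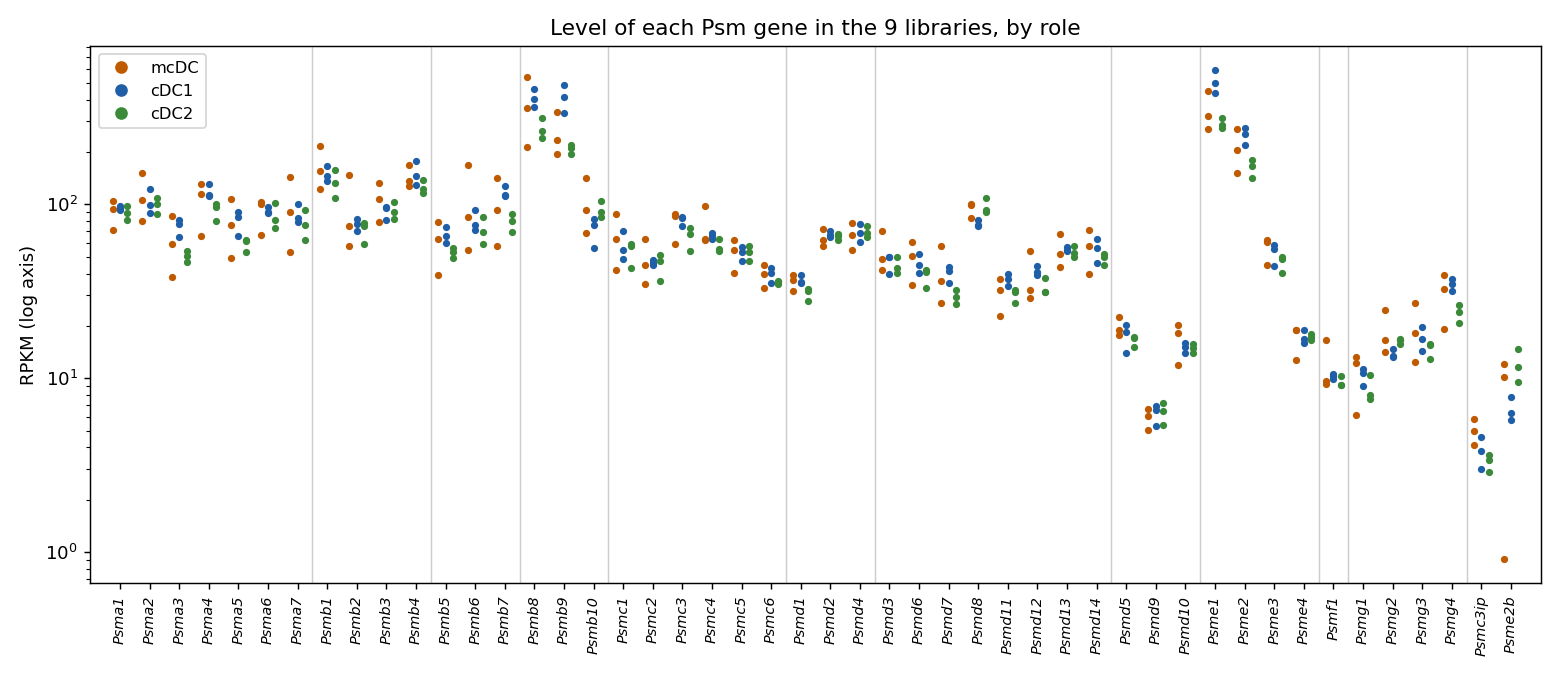
RPKM of the Psm genes on a log axis, 1 point per library, with mcDC, cDC1 and cDC2 from left to right above each gene and grey lines between roles. Within each library Psme1, Psmb8, Psmb9 and Psme2 stand above the other genes. Across libraries the points of Psmb8, Psmb9 and Psme2 overlap those of Psmb1. Psma8 and Psmb11, which average 0.964 and 0.446 RPKM, are left out.

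Within the 20S core, the alpha ring genes other than Psma8 averaged 62.0 RPKM for Psma3 to 105 RPKM for Psma4, and the structural beta genes 80.4 RPKM for Psmb2 to 149 RPKM for Psmb1. Psma8, the alpha subunit of the testis proteasome, had 5 to 31 reads in a library and 0.305 to 2.22 RPKM. Psmb11, the beta5 subunit of thymic cortical epithelium, stood at 0.278 to 0.705 RPKM and was not tested. The 6 ATPases of the 19S base, which thread the substrate, averaged 38.1 RPKM for Psmc6 to 74.4 RPKM for Psmc3. Other base subunits, among them the ubiquitin receptor Psmd4 at 68.3 RPKM, reached down to 34.5 RPKM for Psmd1. In the lid, the range was 32.7 RPKM for Psmd11 to 89.5 RPKM for Psmd8, and the lid's deubiquitinase Psmd14 averaged 53.4 RPKM. The chaperones that build the base were lower, from 6.19 RPKM for Psmd9 to 17.9 RPKM for Psmd5, as were those that build the core, from 9.86 RPKM for Psmg1 to 29.6 RPKM for Psmg4. Psme3, the nuclear PA28 subunit, averaged 51.8 RPKM, the PA200 activator Psme4 17.1 RPKM, and the proteasome inhibitor Psmf1 10.6 RPKM. The geometric mean of 17 subunits of the 19S cap was 0.539 ± 0.0557 times that of 11 structural core genes in mcDC, 0.527 ± 0.0206 times in cDC1 and 0.555 ± 0.0219 times in cDC2 (SD, n = 3 each).

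In cDC1 against cDC2, Psmb9 and Psme1 were higher and passed the test, which was limma on log2(RPKM + 1) over 11971 genes at an adjusted p threshold of 0.05. Psmb9 stood at 336, 414 and 486 RPKM in cDC1 and at 195, 210.1 and 219 RPKM in cDC2. Every cDC1 library lay above every cDC2 library, and the difference was 0.97 ± 0.21 on the log2 scale (SE, adjusted p = 0.0095). Psme1 stood at 438, 502 and 590.2 RPKM in cDC1 and at 274, 288 and 314 RPKM in cDC2. Again the groups did not overlap, and the difference was 0.80 ± 0.19 (SE, adjusted p = 0.017). In bulk RNA of sorted cells, fewer cells of a type and less RNA per cell cannot be told apart.

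**Figure D2:**
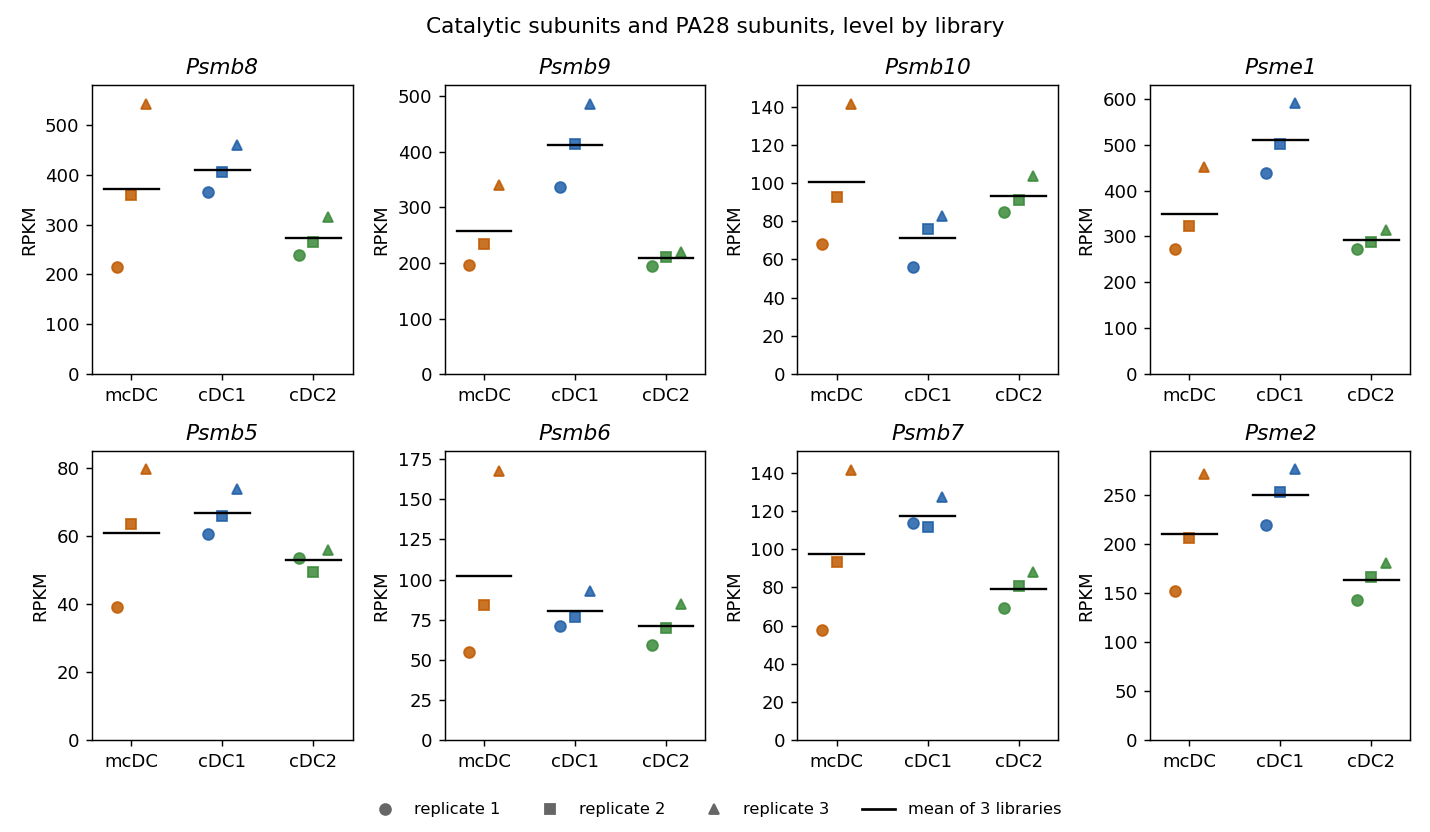
RPKM of the 3 immunosubunits (top left), the 3 constitutive catalytic subunits (bottom left) and both PA28 subunits (right) in each library, on linear axes from 0. Points are libraries and lines are means of 3. For Psmb9 and Psme1 the 3 cDC1 points lie above all 3 cDC2 points, for Psmb10 they lie below, and the mcDC points span the widest range in every panel but that of Psmb9.

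The partner of Psme1 in the PA28 ring, Psme2, showed the same order without passing the test. It stood at 219, 252 and 277 RPKM in cDC1 and at 142, 166 and 180.3 RPKM in cDC2, with no overlap and a difference of 0.61 ± 0.20 (SE, adjusted p = 0.067). Of the 20 alternatives, 7 called it, at 0.00069 to 0.018. Psmb8, the immunosubunit of the beta5 site, stood at 364, 405 and 459.6 RPKM in cDC1 and at 239.5, 265 and 316 RPKM in cDC2. Those groups did not overlap either, with a difference of 0.58 ± 0.29 (SE, adjusted p = 0.21), and 5 alternatives called it, at 0.0086 to 0.048. Psmb10 differed from the other immunosubunits in sign. It stood at 56.1, 75.8 and 82.6 RPKM in cDC1 and at 84.9, 91.0 and 104 RPKM in cDC2. Every cDC1 library thus lay below every cDC2 library, with a difference of -0.39 ± 0.25 (SE, adjusted p = 0.35), and 1 alternative called it, at 0.012.

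The constitutive subunits did not pass the test in cDC1 against cDC2. Psmb7 stood at 114, 111 and 128 RPKM in cDC1 and at 69.1, 80.6 and 88.1 RPKM in cDC2, with no overlap and a difference of 0.57 ± 0.27 (SE, adjusted p = 0.195). As with Psmb8, 5 of the 20 alternatives called it, at 0.0058 to 0.0499. Psmb5 stood at 60.4, 65.9 and 73.8 RPKM in cDC1 and at 53.4, 49.2 and 55.9 RPKM in cDC2, a difference of 0.33 ± 0.22 (SE, adjusted p = 0.39), and 1 alternative called it, at 0.040. Psmb6 overlapped between the groups, at 71.3, 76.4 and 93.0 RPKM in cDC1 and 59.5, 69.8 and 84.5 RPKM in cDC2. The reference genome names pseudogenes of Psma5, Psmb5, Psmb6 and Psmb7 that are not listed in the deposited table, and how reads shared with them were counted is not known, so the values of these genes are uncertain, as are those of Psme2 and Psme2b.

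Of the 49 Psm genes tested, 2 were called higher and 0 lower in cDC1, which is 4.08% against 19.6% of all genes tested. A further 4 had an unadjusted p under 0.05. Voom, which fits read counts with weights for depth and was run on the recovered reads, also called 2. The median difference was 0.16 for the Psm genes and -0.022 for all genes, and 39 of the 49 had a positive sign. In 15 of the 49 (30.6%) every cDC1 library was above every cDC2 library, against 21.5% of all genes, and in 4 (8.16%) every cDC1 library was below, against 24.6%. The 15 included Psma3, Psma4 and Psma5 of the alpha ring, Psmc3 of the base ATPases, Psmd7, Psmd11 and Psmd12 of the lid and the core chaperone Psmg4. The 4 were Psmb10, the lid subunit Psmd8, the core chaperone Psmg2 and Psme2b. Psmd8 stood at 74.7, 75.8 and 81.5 RPKM in cDC1 and at 90.1, 92.8 and 108 RPKM in cDC2, a difference of -0.32 ± 0.12 (SE, adjusted p = 0.096). The call of Psme1 was lost, at adjusted p of 0.060 to 0.076, without cDC1 replicate 2 or 3 or cDC2 replicate 1 or 2, while Psmb9 stayed called under every alternative, at 0.00014 to 0.046. With mcDC replicate 1 or 3 left out of the shared fit, 7 of the 49 Psm genes were called in cDC1 against cDC2 in place of 2. Over all genes, these fits called 2696 of 11845 and 3467 of 11807. Runs of consecutive library titles each hold 1 library of every subset. With the run as a replicate block, 6 of the 49 Psm genes were called, against 2942 of 11971 genes. Of the 6, Psma3, Psmb8, Psmb9, Psme1 and Psme2 were higher in cDC1 and Psmd8 was lower.

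Genes of other blood cells moved with this comparison. Of 12 neutrophil markers, 9 were lower in cDC1, and their summed level was 15.0 to 48.0 RPKM in cDC1 and 193 to 1627 RPKM in cDC2. Of 8 monocyte markers tested, 6 were lower in cDC1, with sums of 147 to 228 RPKM in cDC1 and 953 to 1958 RPKM in cDC2. None of these markers was at 0 in every library of cDC1 or cDC2. Their part in the Psm differences was not tested.

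In mcDC against cDC1, Psmb9 again had the largest difference of the 49 Psm genes tested. It stood at 196, 235 and 341 RPKM in mcDC, against 336, 414 and 486 RPKM in cDC1. The highest mcDC library, replicate 3, reached just past the lowest cDC1 library, and the difference was -0.70 ± 0.21 on the log2 scale (SE), which missed the threshold (adjusted p = 0.052). Without mcDC replicate 3 the difference was -0.92 (adjusted p = 0.0045), and over all alternatives the adjusted p lay between 0.0012 and 0.18. Psme1 stood at 273, 323 and 451 RPKM in mcDC, against 438, 502 and 590.2 RPKM in cDC1, a difference of -0.57 ± 0.19 (SE, adjusted p = 0.080). Without mcDC replicate 3 it was -0.77 (adjusted p = 0.0076), within a range of 0.0020 to 0.25 over the alternatives.

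The other inducible genes did not pass the test in mcDC against cDC1. Psmb8 spread more in mcDC than in any other subset, at 215, 358 and 541 RPKM in mcDC against 364, 405 and 459.6 RPKM in cDC1, so that the mcDC libraries lay both below and above all of cDC1. The difference was -0.23 ± 0.29 (SE, adjusted p = 0.65). Psmb10 was at 68.2, 92.5 and 141 RPKM in mcDC and at 56.1, 75.8 and 82.6 RPKM in cDC1, a difference of 0.44 ± 0.25 (SE, adjusted p = 0.28), again opposite in sign to Psmb9. Psme2, at 152, 206 and 271 RPKM in mcDC and 219, 252 and 277 RPKM in cDC1, overlapped. The constitutive subunits overlapped as well. Psmb5 was at 39.0, 63.5 and 79.6 RPKM in mcDC, Psmb6 at 54.6, 84.3 and 168 RPKM, and Psmb7 at 57.5, 93.4 and 141 RPKM, each wider than the range of cDC1.

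None of the 49 Psm genes was called by limma between mcDC and cDC1, 0 of 49 against 15.4% of all genes tested. At an unadjusted p under 0.05 there were 3 (Psmb9, Psme1 and Psmd8), and voom on recovered reads called 1, which was Psmb9. The median difference was -0.029 for the Psm genes and 0.094 for all genes, and 20 of the 49 had a positive sign. Only Psmd8 had every mcDC library above every cDC1 library, 1 of 49 against 19.5% of all genes, and 0 of 49 had every mcDC library below, against 11%. Psmd8 was at 83.3, 100.1 and 99.0 RPKM in mcDC and at 74.7, 75.8 and 81.5 RPKM in cDC1, a difference of 0.28 ± 0.12 (SE, adjusted p = 0.16). Differences within 0.5 on the log2 scale were found for 47 of the 49 genes. Without mcDC replicate 3, 5 Psm genes were called lower in mcDC (Psma3, Psmb7, Psmb9, Psmd12 and Psme1) and 2 higher (Psme2b and Psmg2). Without cDC1 replicate 1 there was 1 Psm call. Over all genes, these fits called 2601 of 11807 and 1557 of 11916. Macrophage markers moved with this comparison, with 9 of 10 tested higher in mcDC and sums of 416 to 793 RPKM in mcDC and 116 to 160 RPKM in cDC1. Of 9 NK cell markers 4 were higher in mcDC, with sums of 245 to 420 RPKM in mcDC and 84.6 to 151 RPKM in cDC1. Monocyte markers were higher for 4 of 8 tested, with sums of 400.1 to 528 RPKM in mcDC and 147 to 228 RPKM in cDC1. B cell markers were higher for 3 of 7 tested and T cell markers for 2 of 7, and 0 of either were lower. None of these was at 0 in every library of either subset, and their part in the Psm differences was not tested.

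mcDC against cDC2 gave no call among the Psm genes, 0 of 49 against 3.66% of all genes tested, with 1 at an unadjusted p under 0.05, which was Psmc3ip, and 0 by voom. Without mcDC replicate 1 there was 1 call among the 49, against 896 of 11845 genes. mcDC were above cDC2 in sign for 40 of the 49, with a median difference of 0.19 against 0.060 for all genes. Psmb8 differed by 0.35 ± 0.29 (SE, adjusted p = 0.59), Psmb9 by 0.27 ± 0.21 (SE, adjusted p = 0.57) and Psmb10 by 0.05 ± 0.25 (SE, adjusted p = 0.94). Psme1 at 273, 323 and 451 RPKM in mcDC and 274, 288 and 314 RPKM in cDC2 differed by 0.23 ± 0.19 (SE, adjusted p = 0.60). In each of these genes at least 1 mcDC library lay among or below the cDC2 libraries. The groups did not overlap for 2 of the 49, Psmc3ip and the base chaperone Psmd5, both with mcDC above, against 13.9% of all genes, and 0 of 49 had mcDC below, against 7.7%. Psmd5 was at 18.8, 22.5 and 17.8 RPKM in mcDC and at 15.1, 17.1 and 17.4 RPKM in cDC2. Psme2b had the largest standard error on the log2 scale, at 12.2, 10.2 and 0.917 RPKM in mcDC, and its low value in mcDC replicate 3 rested on 5 reads. Markers of other cells moved with this comparison too. Macrophage markers were higher in mcDC for 7 of 10 tested, with sums of 416 to 793 RPKM in mcDC and 190.5 to 225 RPKM in cDC2. NK cell markers were higher for 4 of 9, with sums of 245 to 420 RPKM in mcDC and 193 to 229.7 RPKM in cDC2. Neutrophil markers were lower in mcDC for 6 of 12, with sums of 40.7 to 55.8 RPKM in mcDC, where Camp was at 0 in every library, and 193 to 1627 RPKM in cDC2. Monocyte markers were lower for 3 of 8 tested, with sums of 400.1 to 528 RPKM in mcDC and 953 to 1958 RPKM in cDC2. Their part in the Psm differences was not tested.

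**Figure D3:**
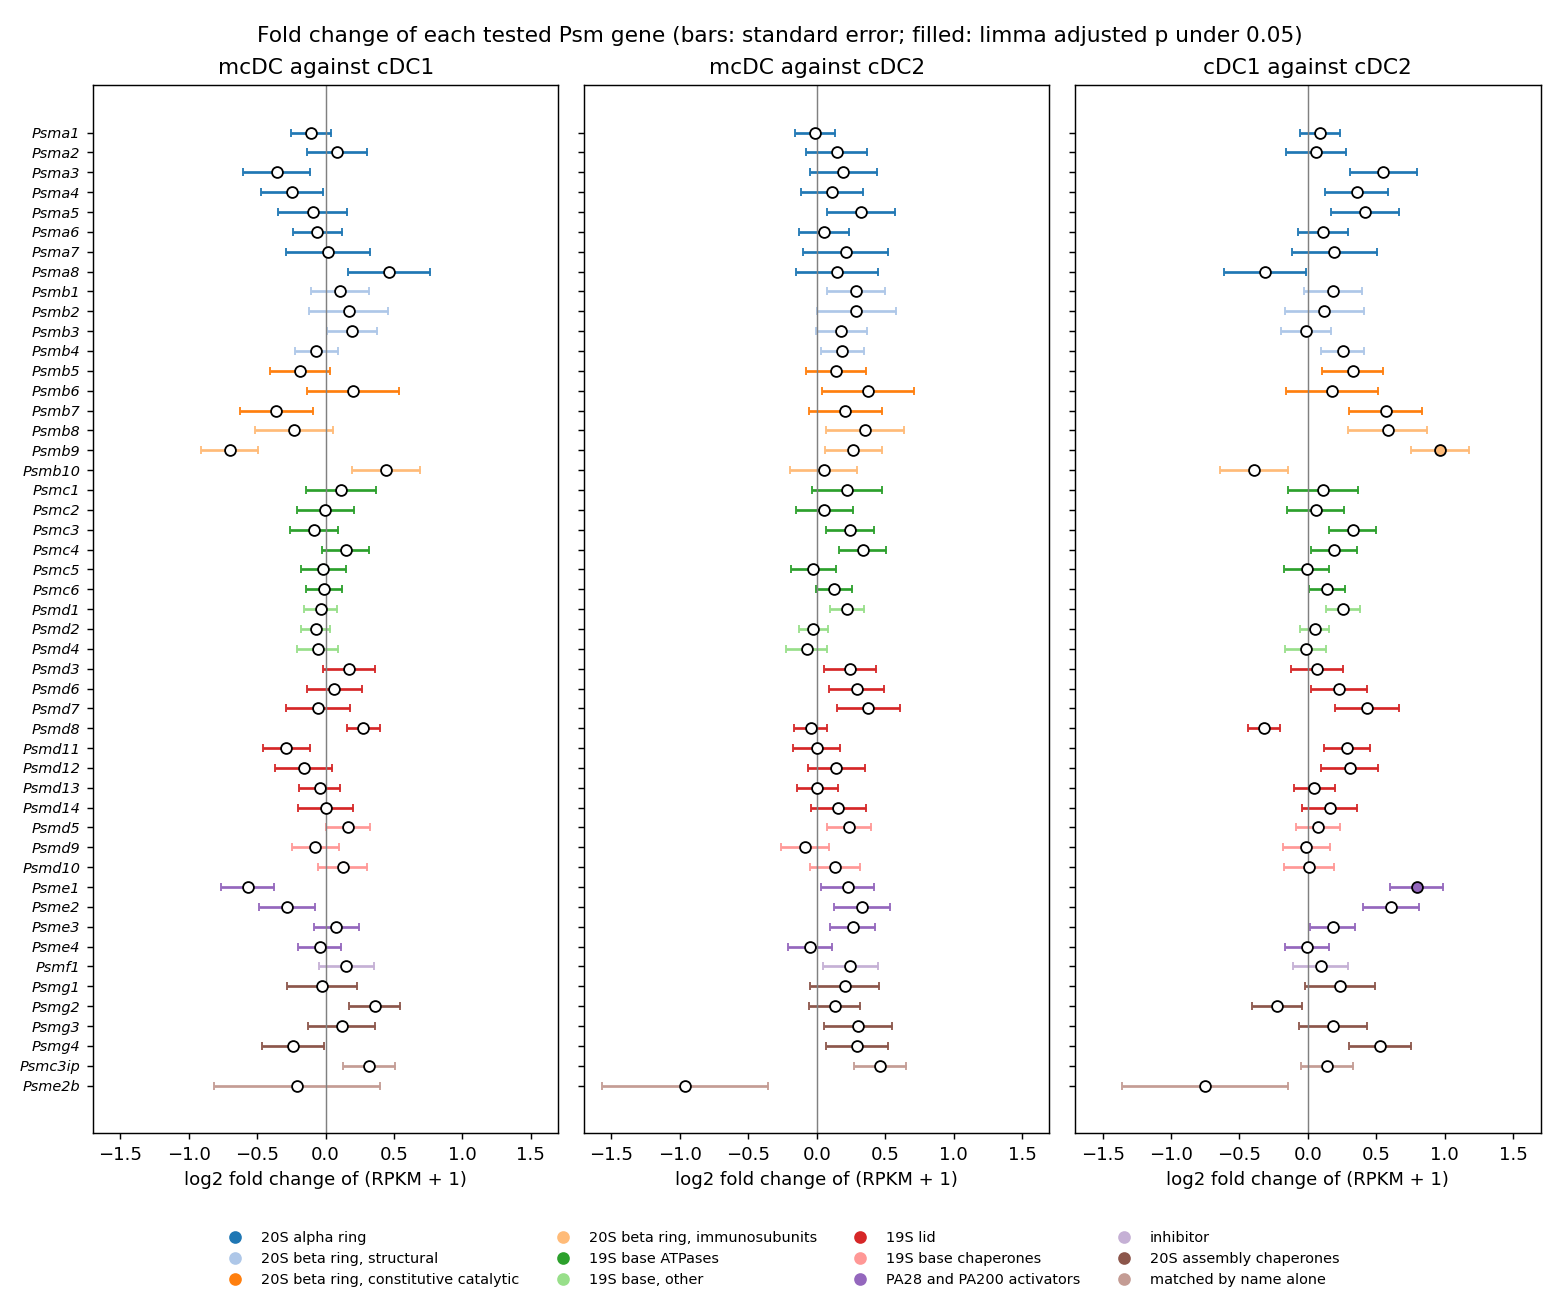
Differences of the 49 tested Psm genes in the 3 comparisons, in log2 of RPKM + 1, with bars for the standard error and colours for roles. Filled points passed the limma test at an adjusted p of 0.05, and the only 2 are Psmb9 at 0.97 and Psme1 at 0.80, both in cDC1 against cDC2.

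By role, none of the structural genes of the core and cap was called in any comparison. In cDC1 against cDC2 the 6 base ATPases ranged from -0.0084 for Psmc5 to 0.33 for Psmc3, and in mcDC against cDC1 from -0.084 for Psmc3 to 0.15 for Psmc4. The 8 lid genes ranged from -0.32 for Psmd8 to 0.43 for Psmd7 in cDC1 against cDC2. The alpha ring, leaving aside the low Psma8, was led by Psma3, at 65.3, 77.3 and 81.4 RPKM in cDC1 and 46.5, 50.8 and 54.2 RPKM in cDC2. That difference was 0.55 ± 0.24 (SE, adjusted p = 0.16). Among the activators, Psme3 and Psme4 lay apart from the PA28 pair of Psme1 and Psme2, with differences of 0.18 (adjusted p = 0.54) and -0.0045 (adjusted p = 0.99) in cDC1 against cDC2. The inhibitor Psmf1 was at 9.31, 9.69 and 16.6 RPKM in mcDC, 9.88 to 10.6 RPKM in cDC1 and 9.16 to 10.3 RPKM in cDC2, and differed by 0.094 in cDC1 against cDC2 (adjusted p = 0.83).

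Each immunosubunit was then divided by the constitutive subunit of the same site within a library, because a ratio of RPKM does not depend on how a library was scaled. The ratios tested were of RPKM + 1, and without this pseudocount the p-values of the beta1 and beta2 ratios were the same and that of the beta5 ratio was 0.143. At the beta1 site, Psmb9 was 3.58, 2.78 and 2.03 times Psmb6 in mcDC, 4.71, 5.41 and 5.22 times in cDC1, and 3.27, 3.01 and 2.60 times in cDC2. All cDC1 libraries lay above all others, while mcDC and cDC2 overlapped. An exact permutation test of the log2 ratio over the 3 subsets (1680 arrangements, n = 3 each) gave p = 0.0286, or 0.0429 adjusted over the 3 ratios by the Benjamini-Hochberg method. At the beta2 site the order was the opposite. Psmb10 was 1.19, 0.990 and 0.999 times Psmb7 in mcDC, 0.492, 0.680 and 0.647 times in cDC1, and 1.23, 1.13 and 1.18 times in cDC2, so that every cDC1 library lay below all others. The same exact permutation test gave p = 0.0107 (adjusted 0.0321). Both genes carried this ratio. In cDC1 against cDC2 Psmb10 differed by -0.39 and Psmb7 by 0.57, and in mcDC against cDC1 by 0.44 and -0.36.

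At the beta5 site no difference passed the exact permutation test (p = 0.136, adjusted 0.136). Psmb8 was 5.51, 5.64 and 6.80 times Psmb5 in mcDC, 6.04, 6.14 and 6.23 times in cDC1, and 4.48, 5.39 and 5.65 times in cDC2. All cDC1 libraries lay above all cDC2 libraries, while mcDC overlapped both. The mean log2 ratios of cDC1 and cDC2 differed by 0.26 at beta5, 0.79 at beta1 and -0.96 at beta2, and those of mcDC and cDC1 by -0.046, -0.90 and 0.80. Differences between single pairs of subsets were not tested, since 3 libraries against 3 cannot give an exact p under 0.10. For Psmb9 to Psmb6 the adjusted p rose above the threshold without any 1 of the cDC1 libraries or without cDC2 replicate 1 or 2, at 0.0589 to 0.0804. For Psmb10 to Psmb7 it was 0.0107 to 0.0482 whichever library was left out. With the title run as a replicate block (216 arrangements) both calls were lost, at adjusted p of 0.111 for Psmb9 to Psmb6 and 0.0833 for Psmb10 to Psmb7, whose unadjusted p of 0.0278 is the smallest that exact permutation within runs can give.

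**Figure D4:**
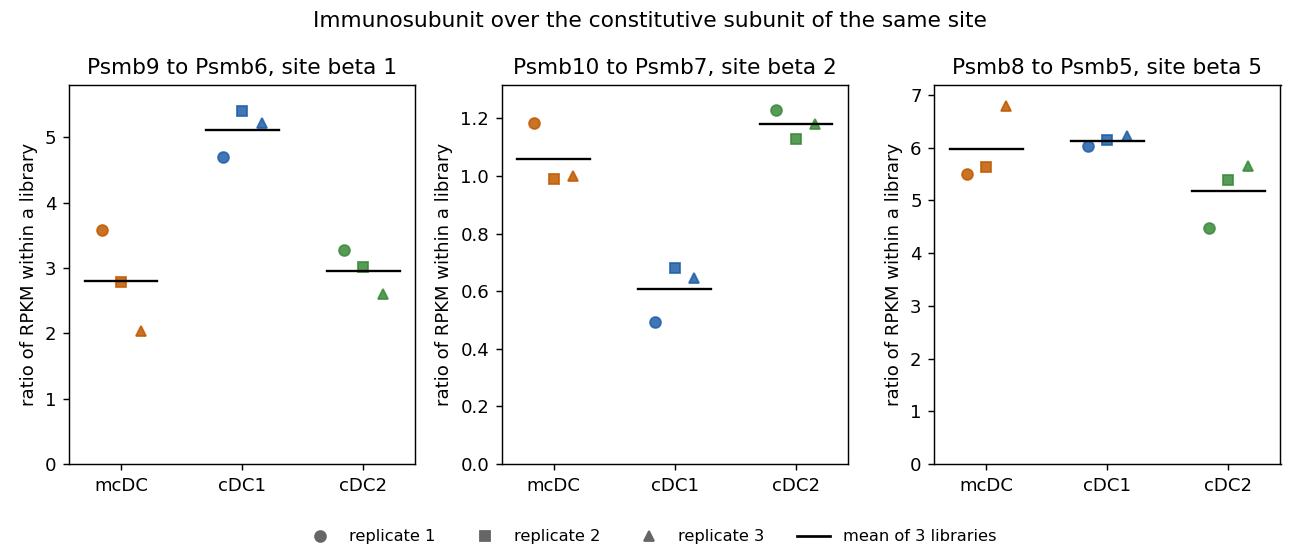
Ratio of each immunosubunit's RPKM to that of the constitutive subunit of the same site, in each library, on linear axes from 0. Points are libraries and lines are means of 3. cDC1 lie above both other subsets for Psmb9 to Psmb6 and below both for Psmb10 to Psmb7. For Psmb8 to Psmb5 they lie above all cDC2 points and among the mcDC points.

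Ratios to Psmb8, which leave out Psmb7, also set Psmb10 opposite to Psmb9. Psmb9 was 0.732 ± 0.155 times Psmb8 in mcDC (SD, n = 3), 0.921, 1.02 and 1.06 times in the cDC1 libraries, and 0.766 ± 0.0633 times in cDC2 (SD, n = 3). Psmb10 was 0.279 ± 0.0332 times Psmb8 in mcDC, 0.174 ± 0.0175 times in cDC1 and 0.342 ± 0.0127 times in cDC2 (SD, n = 3 each). Within PA28, Psme1 was 1.68 ± 0.115 times Psme2 in mcDC, 2.04 ± 0.0802 times in cDC1 and 1.80 ± 0.108 times in cDC2 (SD, n = 3 each). These ratios were not tested.

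Much of the spread of Psm genes within a subset was shared by the whole group. The geometric mean of the 11 structural core genes was 69.3, 98.0 and 132 RPKM in mcDC, 90.0, 97.5 and 109 RPKM in cDC1, and 74.7, 85.9 and 95.7 RPKM in cDC2. The median deviation of the 49 genes from their subset's mean was -0.39, 0.039 and 0.36 on the log2 scale in mcDC, -0.11, -0.010 and 0.11 in cDC1, and -0.14, 0.014 and 0.12 in cDC2. Over all genes it stayed between -0.028 and 0.035. Replicate 3 held the highest value of its subset for 37 of the 49 genes in mcDC, 36 in cDC1 and 38 in cDC2. Replicate numbers were given in accession order, in which replicates of the same number in the 3 subsets also have consecutive library titles. Relative to the core genes of the same library, Psmb9 differed by 0.75 in cDC1 against cDC2 and by -0.67 in mcDC against cDC1, with no overlap between the libraries in either. Psme1 differed by 0.58 and -0.54 and Psme2 by 0.40 and -0.25, also with no overlap. Psmb10 differed by -0.61 and 0.48, again without overlap, and Psmb7, its constitutive counterpart, by 0.36 and -0.33, the other way and also without overlap. Psmb6 differed by -0.037 and 0.23 with overlap, and Psmb5 by 0.12 with overlap and -0.15 without. Psmb8 differed by 0.37 without overlap and by -0.20 with it. Lack of overlap was not particular to these genes. The core genes Psma3, Psma4 and Psmb3 differed by 0.34, 0.15 and -0.23 in cDC1 against cDC2, and by -0.33, -0.21 and 0.23 in mcDC against cDC1, all without overlap. The share over all genes was not computed.

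Other genes of the pathway were read from 4 lists. Of all genes tested, 19.6% were called in cDC1 against cDC2, 15.4% in mcDC against cDC1 and 3.66% in mcDC against cDC2. Of 11 further proteasome factors tested, which include the core assembly factor Pomp and the cap subunit Shfm1, 0 were called in any of the 3 comparisons. Pomp, induced by interferon together with the immunosubunits, was at 150, 242 and 385 RPKM in mcDC, 264, 278 and 345 RPKM in cDC1, and 166, 200 and 238 RPKM in cDC2. It differed by 0.56 ± 0.30 in cDC1 against cDC2 (SE, adjusted p = 0.26). Every cDC1 library lay above every cDC2 library, and the mcDC libraries overlapped both.

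Of 23 regulators of proteasome genes, 5 were higher and 5 lower in cDC1 than in cDC2, where 19.6% of all genes were called. Nlrc5, the activator of MHC class I genes and of Psmb9 and Tap1, was at 33.9, 28.7 and 24.6 RPKM in mcDC, 71.3, 95.5 and 68.6 RPKM in cDC1, and 27.5, 28.2 and 25.3 RPKM in cDC2. It rose by 1.49 ± 0.16 in cDC1 against cDC2 (SE, adjusted p = 0.00016) and fell by 1.40 ± 0.16 in mcDC against cDC1 (SE, adjusted p = 0.00044). Irf1, the interferon-induced factor that acts on many of these promoters, averaged 63.9 ± 5.89 RPKM in mcDC, 119 ± 10.3 RPKM in cDC1 and 71.0 ± 3.93 RPKM in cDC2 (SD, n = 3 each). It was called in the same comparisons, at 0.74 (adjusted p = 0.0014) and -0.89 (adjusted p = 0.00081). Irf8, a lineage factor of cDC1 that is also on the cDC1 marker list, rose by 3.28 in cDC1 against cDC2 and by 2.21 in mcDC against cDC2. Nfkb1 and Ifnar2, a subunit of NF-kappaB and of the type I interferon receptor, were lower in cDC1 than in cDC2, with differences of -1.28 and -1.15. Nfe2l1, the factor that raises constitutive proteasome genes when proteasomes fail, was higher in cDC1 than in cDC2 by 0.52 (adjusted p = 0.011), a call lost without cDC2 replicate 2 or 3 (0.057 in both). Its relative Nfe2l2 fell by 1.13 in cDC1 against cDC2 and by 0.92 in mcDC against cDC2. The latter call was lost in a fit of the 2 groups alone and without mcDC replicate 2 or cDC2 replicate 2 or 3 (adjusted p from 0.062 to 0.095). In mcDC against cDC1, 3 of the 23 regulators were higher and 4 lower, with 15.4% of all genes called. In mcDC against cDC2, 1 was higher and 1 lower, with 3.66% of all genes called.

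**Figure D5:**
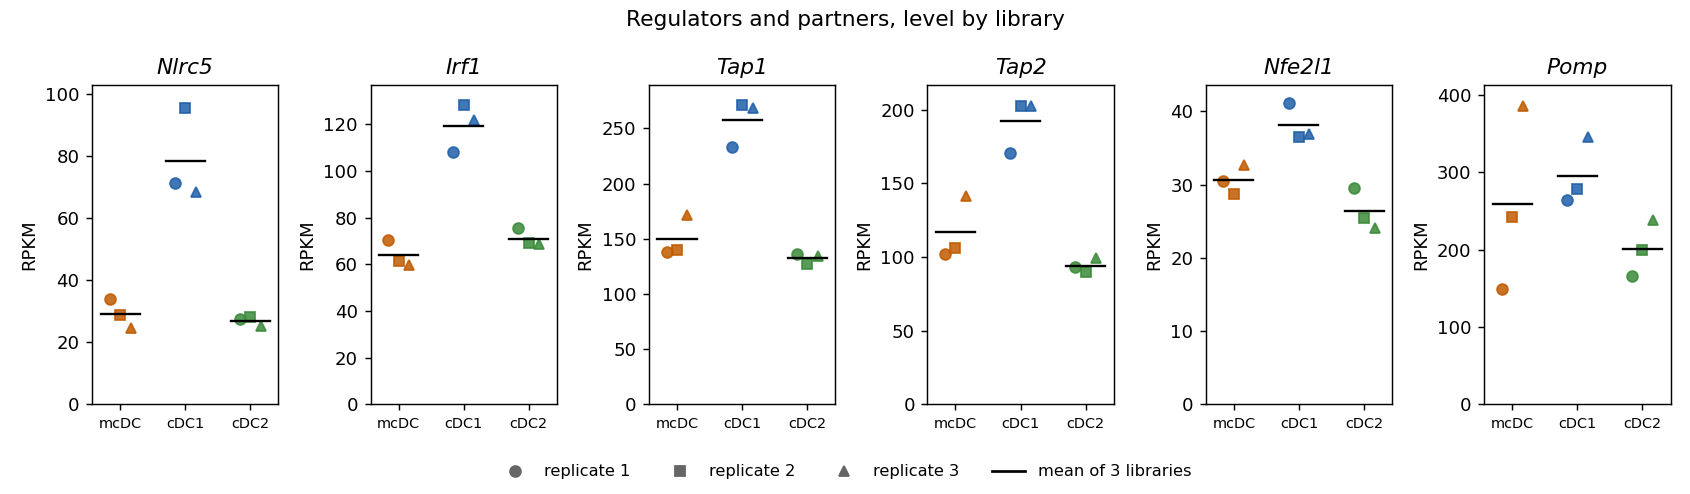
RPKM of regulators and partners of the proteasome genes in each library, on linear axes from 0. Points are libraries and lines are means of 3. Nlrc5, Irf1, Tap1 and Tap2 are higher in all 3 cDC1 libraries than in any other library, while Pomp is higher in all 3 cDC1 libraries than in the cDC2 libraries and the mcDC points overlap both.

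Of 18 genes for class I peptide processing and loading, 6 were higher and 0 lower in cDC1 than in cDC2, where 19.6% of all genes were called. The median of the list was 0.21 against -0.022 for all genes. The peptide transporter gene Tap1, neighbour of Psmb9 and Psmb8, averaged 150 ± 18.6 RPKM in mcDC, 257 ± 21.0 RPKM in cDC1 and 132 ± 4.35 RPKM in cDC2 (SD, n = 3 each). It rose by 0.95 ± 0.12 in cDC1 against cDC2 (SE, adjusted p = 0.00047) and fell by 0.78 ± 0.12 in mcDC against cDC1 (SE, adjusted p = 0.0024). Tap2, its partner in the transporter, rose by 1.02 ± 0.14 (SE, adjusted p = 0.00082) and fell by 0.72 ± 0.14 (SE, adjusted p = 0.0083) in the same comparisons. Tapbpl, a peptide editor, rose by 0.96 and fell by 0.77. The cytosolic aminopeptidase Lap3 rose by 0.98 in cDC1 against cDC2 (adjusted p = 0.038), a call lost with no filter and without mcDC replicate 2, cDC1 replicate 2 or 3 or any 1 of the cDC2 libraries, at 0.050 to 0.15. B2m and H2-K1, the chains of class I itself and the most abundant uncalled genes of the list, differed by -0.27 (adjusted p = 0.34) and 0.050 (adjusted p = 0.88) in cDC1 against cDC2. In mcDC against cDC1, 0 of the 18 were higher and 3 lower, a share near the 15.4% of all genes called there. In mcDC against cDC2, 0 were called, against 3.66% of all genes. Of 18 ubiquitin and shuttling genes, Vcp, the segregase that hands proteins to the proteasome, rose by 0.68 in cDC1 against cDC2, and Vcp and the ubiquitin gene Ubb fell by 0.51 and 0.53 in mcDC against cDC1. Both calls in mcDC against cDC1 were lost in a fit of the 2 groups alone and without cDC1 replicate 2 or 3. That of Ubb was also lost without mcDC replicate 2 or cDC2 replicate 3. The other 17 and 16 were not called in those comparisons, and 0 were called in mcDC against cDC2.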

How the data were processed

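Expression values were deposited by the authors as 1 table of 14862 genes in 9 libraries. Per the labels' protocols, RNA came from a mirVana extraction and libraries from a directional NEBNext Ultra kit, and genome build mm8 is in the submitters' processing notes. The aligner, counting tool and annotation are not given in the sources used here. The files do not name the unit. The deposited values were read as RPKM because 100% of genes gave whole reads (tolerance 0.001) from the steps between values. Other units proportional to reads would give whole reads as well, so the unit remains an inference. The 8 files of single libraries held the table's values, and mcDC replicate 3 had no such file. There were 0 columns of other samples.

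Differences were tested here on log2(RPKM + 1) with limma 3.58.1 (R 4.3.3). The 11971 genes tested had more than 1 RPKM in 2 or more libraries. The model was 1 fit of the 3 groups (6 residual degrees of freedom), a trend in the prior variance and Benjamini-Hochberg adjustment over all genes within a comparison. Such fold changes understate those of low genes. Ratios were tested by exact permutation. Sequences came from RefSeq on GRCm38.p6, with 50 of 50 Psm genes found there and 42 with a promoter window, and no coordinate of mm8 was used. Other steps used Python 3.11.15, pandas 2.3.3 and numpy 2.4.6.

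The genes and lists were chosen with earlier results of these data known. Named genes were the catalytic, PA28 and other activator genes, Psmf1 and Pomp, every Psm gene called or not tested, the highest and lowest of each role, and up to 4 called and 2 uncalled genes of each pathway list. Others, Nfe2l1 among them, were named after their values were seen. The scripts were tested on simulated data. There, limma recovered 50% of 2-fold changes in mcDC against cDC1, 56% in mcDC against cDC2 and 55% in cDC1 against cDC2. These changes were placed in genes averaging above 5 RPKM. A Psm gene that was not called may therefore still differ.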

Additional observations from a re-analysis of the deposited data

How the results depend on the processing

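Psmb9 in cDC1 against cDC2 kept its direction and its call under all 20 alternatives. Alternatives were tallied for the catalytic, activator and inhibitor genes, Pomp, and pathway genes in the comparisons that called them. Among these, 0 called results changed sign. Psme2b was outside the tally and did change sign in mcDC against cDC1. It went from -0.21, not called, to 0.68 without mcDC replicate 3 (limma adjusted p = 0.037). Counts of called Psm genes moved more. For mcDC against cDC1, where limma called 0, there were 2 under quantile normalization, 2 under median-of-ratios scaling, 1 under a filter of 5 RPKM and 1 by voom on recovered reads, which was added after the data were seen. Leaving out 1 library at a time gave 0 to 7 there, 0 to 1 in mcDC against cDC2 and 1 to 7 in cDC1 against cDC2. Over all genes it gave 951 to 2601, 158 to 896 and 1547 to 3467 calls in the same order. A fit of the 2 groups alone called 13 of 48 Psm genes in cDC1 against cDC2, and 3731 of 11518 genes. The cause of these changes was not tested. Median-of-ratios scaling moved the median of all genes in mcDC against cDC1 to -0.027, against 0.094 as deposited, and that of the Psm genes to -0.16, against -0.029. It turned the calls over all genes to 837 higher and 963 lower in mcDC than in cDC1, against 1141 and 704, and to 199 higher and 266 lower in mcDC than in cDC2, against 247 and 191.

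Runs of 3 consecutive library titles hold 1 library of each subset, and these runs are the replicate numbers. Deviations over 11971 genes correlated at 0.098 to 0.46 in the 9 pairs of the same run and at -0.45 to 0.031 in the 18 others, and libraries of cDC1 and cDC2, and of mcDC and cDC2, were all over 0.1 within a run. The pair at 0.098 was of mcDC and cDC1. Deviations were taken from each subset's mean, so positive values within runs push those between runs below 0, and the 2 ranges are not independent. What a run shares is not given. With the run as a replicate block, 2 of 49 Psm genes were called in mcDC against cDC1, 0 in mcDC against cDC2 and 6 in cDC1 against cDC2. Over all 11971 genes it called 2474, 773 and 2942. The block with median-of-ratios scaling gave 3 and 10 for the first and last of these comparisons, with 2420 and 2991 over all genes. Leaving out mcDC replicate 3 in the blocked fit gave 8 and 15, with 3003 and 4274 of 11807 genes. Both settings were chosen after seeing the data. The block put the adjusted exact permutation p at 0.111 for Psmb9 to Psmb6 and 0.0833 for Psmb10 to Psmb7. With all 3 libraries of the run of mcDC replicate 3 left out, it was 0.333 and 0.25. Only 36 arrangements then exist, and the smallest unadjusted exact permutation p they can give is 0.167, so no ratio could pass. Leaving out 1 library at a time gave 0.0161 to 0.0804, 0.0107 to 0.0482 and, for Psmb8 to Psmb5, 0.0536 to 0.343. Psma8 and Psme2b had as few as 5 reads in a library, which limits what could be detected for them. For the tallied genes, 1212 values under the alternatives kept their side of the threshold, 43 were newly called, 50 lost their call, and 35 uncalled values changed sign.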
